A study of Mus musculus with 12 samples.

Results

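The comparison described here is that of astrocytes captured from the lumbar spinal cord of symptomatic SOD1 G93A mice with those of control mice of the same age, 90 days. The members were chosen by the labels alone, and are 6 of the 12 arrays deposited, 3 of SOD1 G93A mice and 3 of controls. All 12 mice were male and were 90 or 120 days old, with 1 array per mouse. The transgene of SOD1 G93A mice is the human SOD1 gene with an ALS mutation (amyotrophic lateral sclerosis), and the line, named B6SJL-Tg (SOD1 G93A) 1 Gur/J in the methods, had been bred for many generations to C57Bl/6 J Ola/Hsd (Harlan) mice. The controls were the non-transgenic (NTg) littermates, so that apart from the transgene both groups share the same background, sex and age, and no agent was given. The cells were cut out of frozen sections by laser capture microdissection, which lifts chosen cells from a stained section. The labels name a toluidine blue stain, whereas the methods name an antibody to ALDH1L1, an enzyme of astrocytes. The captured RNA was amplified in 2 rounds and hybridised to Affymetrix Mouse Genome 430 2.0 arrays. The question was which transcripts differ in this astrocyte-enriched material once symptoms are present. The captured RNA is treated here as a mixture of cells, since marker genes of oligodendrocytes, neurons and microglia were bright in it beside those of astrocytes. The study itself notes RNA of neurons and microglia in its captures. Its supplement states that the capture took out contamination by oligodendrocytes, which differs from the bright oligodendrocyte markers seen here.

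Astrocytes take up glutamate, buffer potassium and supply neurons with lactate, cholesterol and trophic factors. In injury and in ALS they become reactive, and microglia, the resident phagocytes of the spinal cord, become activated beside them. Activated microglia are known for higher levels of receptors that sense debris and lipids (Trem2, Clec7a), of complement C1q, and of lysosomal proteases that digest what is engulfed. Motor neurons are the cells lost in this model, and material cut from the ventral cord can hold RNA from all of these cells.

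Signals are given as deposited, as linear MAS5 intensities, each array being scaled to a trimmed mean of 100. Log2 fold changes are SOD1 G93A minus NTg on the scale of log2(signal + 7) after quantile normalization, which understates the change of dim probe sets. The words rose and fell are used only where limma gave an adjusted p under 0.05 over all 26132 probe sets tested. Median signals were between 24.9 and 30.4 on the 6 arrays. The 3′ over 5′ log2 ratio of the Gapdh control probe sets, a measure of RNA integrity and of amplification, was between 3.51 and 4.64. A pair of arrays, SOD1 G93A replicate 1 and NTg replicate 3, stood apart from the other 4 in the same way. Their highest signals were 28178.9 and 24660.3, against 11538.4 to 14430.7 on the other arrays, and their Gapdh ratios of 4.5 and 4.64 were the highest. Of the tested probe sets, 595 were lower by over 1 log2 unit on both of them than on the other arrays of their group, 202 were higher on both, and 61 went opposite ways. Malat1, a nuclear RNA, was at 715.4 and 693.8 on this pair and between 7365.6 and 9697.6 on the other arrays. This gene was chosen after its values were seen. Since 1 of the pair lies in each group, results are given below with and without them.

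At 90 days, 30 probe sets were higher and 6 were lower in the SOD1 G93A material, which are 0.115% and 0.023% of the probe sets tested. The 30 belong to 26 genes and 2 probe sets without a single gene symbol, and the 6 to 6 genes. Of the 26 genes, 21 are in at least 1 of the lists of activated microglia, microglia, lysosomal, phagocytic, complement and reactive astrocyte genes. All 32 lists used here, these among them, together hold 668 of the 12458 genes tested. The lists were chosen with results of these data known, so this count is no independent support. The largest log2 fold changes were those of Cst7, Timp1, Clec7a and Lyz1. The genes that fell were Chodl, Rspo2, Syndig1l, Mctp1, Dcbld1 and Pde6b. In each of the 36 probe sets the 3 SOD1 G93A arrays lay beyond all 3 NTg arrays. Over all probe sets, 5.74% had SOD1 G93A arrays wholly above NTg and 5.55% wholly below. Since their groups do not overlap, all 36 must have the same direction between the 2 arrays that stand apart and between the other 4. That direction is therefore no separate check. With a term for those 2 arrays in the fit, 29 of the 30 and 5 of the 6 passed, and without the 2 arrays 10 of the 30 and 1 of the 6. At a 2-fold change and an unadjusted p under 0.05, the threshold in the methods, 261 probe sets (0.999%) of 201 genes were higher and 201 (0.769%) of 154 genes were lower. The calls at the adjusted p rest on few arrays, since 10 of the 30 and 1 of the 6 passed whichever single array was left out, and Gpnmb, Cd109, Mpeg1, Slamf9, Ctsd, Grn, Hexa and Pde6b passed in none of those 6 fits. When the 90-day arrays were fitted alone, 11 of the 30 and 1 of the 6 passed.

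**Figure D1:**
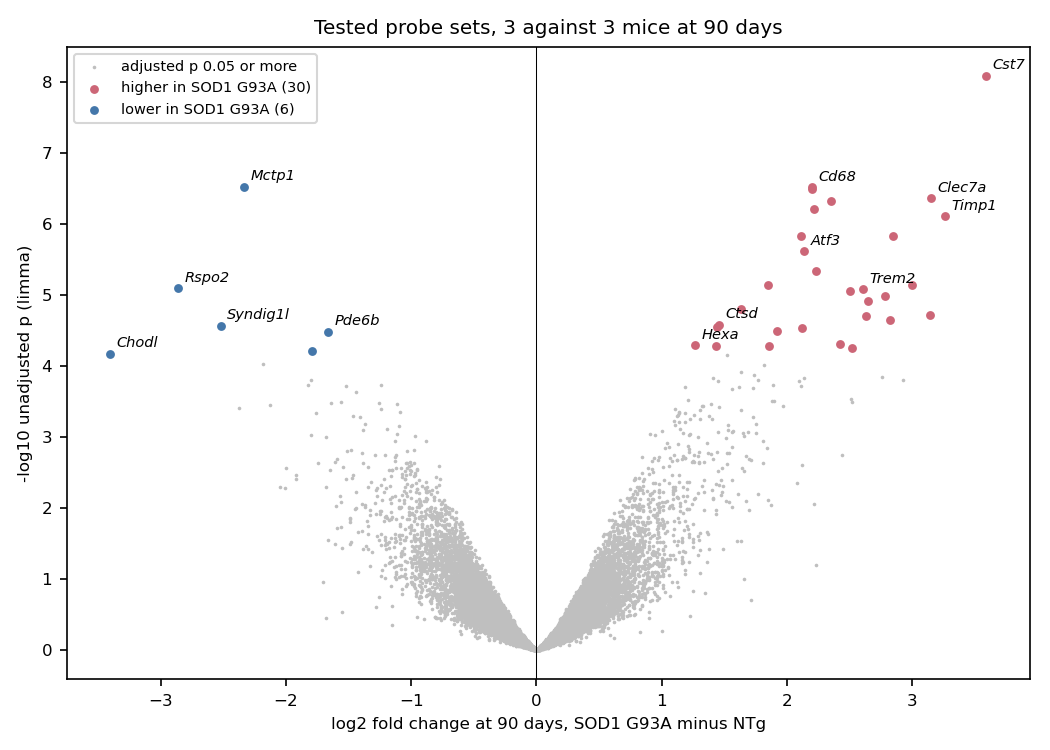
Each point is 1 of 26132 tested probe sets, by its log2 fold change at 90 days (x axis) and the -log10 of its unadjusted limma p (y axis). Red points are the 30 higher and blue points the 6 lower in SOD1 G93A at an adjusted p under 0.05, and Cst7 lies at the top right with a log2 fold change of 3.59.

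Activated microglia genes held more of the rises than any other of the 32 lists. Of 31 genes of this list that were tested, 11 rose and none fell, where 0.185% of all 12458 genes rose and 0.0401% fell. Their median log2 fold change was 1.46, beside 0.02 over all genes, and 23 of the 31 had SOD1 G93A arrays wholly above NTg, against 6.98% of all genes. Cst7, which encodes cystatin F, an inhibitor of lysosomal cysteine proteases, had signals of 8.1, 6.5 and 3.6 on the NTg arrays and of 152.4, 113.5 and 212.2 on the SOD1 G93A arrays. It rose by 3.59 on the log2 scale (standard error, SE, 0.29, limma adjusted p = 0.000216, n = 3 per group), and passed whichever array was left out. The NTg signals of Cst7 lay at about the offset of 7, so the size of this rise depends on it. With a term for the 2 arrays that stand apart all 11 calls of the list passed, and without those arrays 4 did.

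Of 33 Fc and phagocytic receptors tested, which recognise debris, lipids and antibodies, 3 rose (Clec7a, Itgax and Trem2) and none fell. Over all genes 0.185% rose and 0.0401% fell. The median of these receptors was 0.53. Clec7a, a lectin receptor for fungal and other glycans, was at 24.9, 7.5 and 25.6 on the NTg arrays and at 136.2, 308.1 and 236.2 on the SOD1 G93A arrays, a log2 fold change of 3.15 (SE 0.35, limma adjusted p = 0.00208). Trem2, a lipid receptor of microglia, was at 8.1, 3.3 and 6.9 on the NTg arrays and at 72.7, 74.9 and 71.5 on the SOD1 G93A arrays. Its log2 fold change was 2.61 (SE 0.37, limma adjusted p = 0.0136), and the 3 SOD1 G93A signals were close to each other. The NTg signals lay at about the offset, so the size of this rise depends on it too. Trem2 passed in 1 of the 6 fits that left out an array, and had an adjusted p of 0.19 in limma without the 2 arrays that stand apart. Itgax, the CD11c subunit of a complement receptor, was at 3.3, 13.1 and 25.7 on the NTg arrays and at 87.4, 87.5 and 289.5 on the SOD1 G93A arrays, and rose by 2.82 (SE 0.45, limma adjusted p = 0.0256). Its highest signal was that of SOD1 G93A replicate 3. Fcgr1, the high-affinity receptor for IgG, rose on 1 probe set from 18.2, 9.5 and 17.1 to 77.9, 58.2 and 84.7, by 1.85 (SE 0.26, limma adjusted p = 0.0135). Its brighter probe set had a log2 fold change of 0.09 (limma adjusted p = 1.0), so the probe sets of Fcgr1 disagree.

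Further genes of phagocytes and leukocytes rose. Cd68, a membrane protein of lysosomes in macrophages, was at 31.1, 34.9 and 29.1 on the NTg arrays and at 158.1, 177.0 and 190.2 on the SOD1 G93A arrays, a log2 fold change of 2.20 (SE 0.24, limma adjusted p = 0.00208). Both groups were narrow, and Cd68 passed whichever array was left out. Gpnmb, a glycoprotein of the lysosome and cell surface, rose by 2.52 (SE 0.44, limma adjusted p = 0.0431) from signals of 13.3, 16.2 and 3.1 to 66.1, 137.4 and 91.2. Cd52, which encodes a leukocyte surface antigen, rose by 2.65, Mpeg1, a pore-forming protein of macrophages, by 1.92, Slamf9, a receptor of the SLAM family, by 1.43, and Ly86, a partner of a Toll-like receptor homologue, by 2.11. Of these, Ly86 passed whichever array was left out. The lysozymes Lyz1 and Lyz2 lie next to each other in the genome with no protein-coding gene between them, and their transcripts are alike enough that their probe sets may share signal. The 2 probe sets of Lyz1 rose by 3.14 and 3.00, and Lyz2 rose by 2.5, from 82.9, 26.0 and 59.0 to 193.3, 441.0 and 416.2. In all 3 lysozyme probe sets SOD1 G93A replicate 1 was the lowest of its group.

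**Figure D2:**
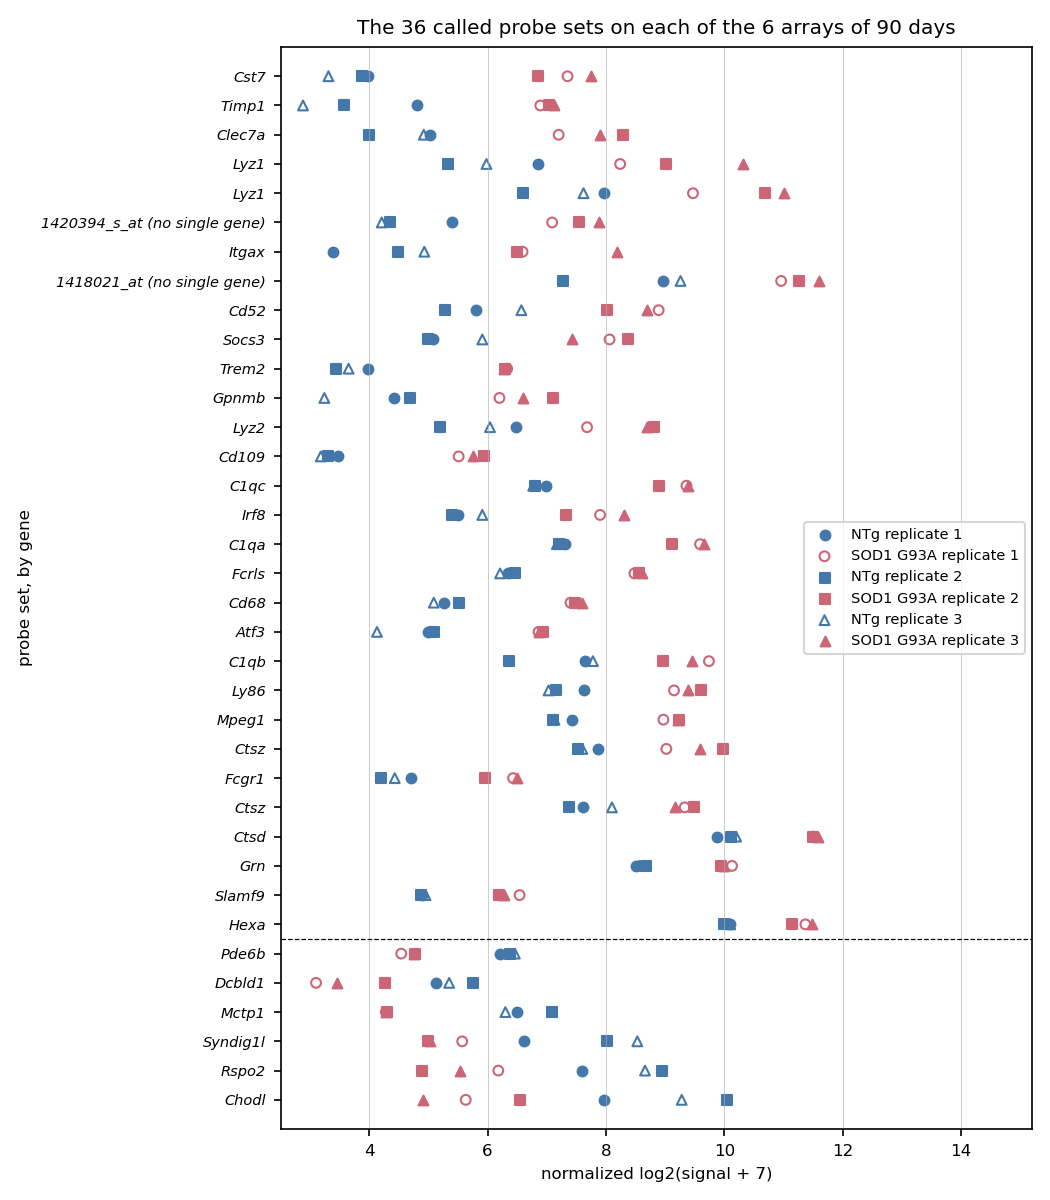
Each row is a called probe set named by its gene, and each point the normalized log2(signal + 7) of 1 array, with NTg in blue, SOD1 G93A in red and open symbols for the 2 arrays that stand apart. Above the dashed line are the 30 that rose and below it the 6 that fell, and in every row the red and blue points do not overlap.

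Complement C1q starts the classical complement pathway and tags synapses and debris for phagocytes. Its A, B and C chains are encoded by adjacent genes, and each rose on at least 1 probe set. C1qa was at 153.6, 138.6 and 132.9 on the NTg arrays and at 762.7, 538.1 and 784.9 on the SOD1 G93A arrays, a log2 fold change of 2.22 (SE 0.25, limma adjusted p = 0.00231). C1qc was at 120.8, 101.8 and 100.1 on the NTg arrays and at 639.6, 461.7 and 660.1 on the SOD1 G93A arrays, a log2 fold change of 2.35 (SE 0.26, limma adjusted p = 0.00208). Both genes were lowest in SOD1 G93A replicate 2, and both passed whichever array was left out. Without the 2 arrays that stand apart their adjusted p was 0.0589 and 0.0572. C1qb rose on 1 of its 3 probe sets, by 2.12 (limma adjusted p = 0.0281), and its brightest gave 1.52 (limma adjusted p = 0.33) with NTg replicate 3 at 884.6, close to SOD1 G93A replicate 2 at 893.4. Of 16 complement genes tested, 3 rose by their brightest probe set (Itgax, C1qc and C1qa), none fell, and the median was 0.68. Over all genes 0.185% rose and 0.0401% fell. SOD1 G93A arrays lay wholly above NTg in 8 of the 16 and wholly below in 2, as they did in 6.98% and 5.42% of all genes. The 2 are the membrane regulators Cd55 and Cd59a, which were chosen after their values were seen. Cd55, which speeds the decay of complement convertases, had signals of 46.7, 64.8 and 29.9 on the NTg arrays and of 20.9, 12.3 and 11.4 on the SOD1 G93A arrays and a log2 fold change of -1.29 (limma adjusted p = 0.301), the lowest of the list. With array weights 5 of the 16 were called higher and 1 lower. The 2 probe sets that rose and have no single gene symbol had log2 fold changes of 2.78 and 2.85 (limma adjusted p = 0.0153 and 0.00391) and are counted in no list.

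Of 68 lysosomal genes tested, 4 rose by their brightest probe set (Cd68, Ctsd, Ctsz and Hexa) and none fell. Over all genes 0.185% rose and 0.0401% fell. The median log2 fold change of the list was 0.27. The SOD1 G93A arrays lay wholly above NTg in 19 of the 68 and wholly below in none, as they did in 6.98% and 5.42% of all genes. The mean log2 level of the list was 8.0, 7.97 and 7.96 on the NTg arrays and 8.41, 8.42 and 8.42 on the SOD1 G93A arrays, so that the spread within each group (SD 0.02 and 0.01) was small beside the difference of 0.44. Ctsd, the aspartic protease cathepsin D, was at 924.7, 1152.1 and 1209.4 on the NTg arrays and at 3365.6, 2514.7 and 2940.7 on the SOD1 G93A arrays, a log2 fold change of 1.46 (SE 0.23, limma adjusted p = 0.0281). Hexa, the alpha subunit of beta-hexosaminidase, which degrades gangliosides, was at 1087.4, 1062.4 and 1127.7 on the NTg arrays and at 3017.1, 1988.9 and 2772.4 on the SOD1 G93A arrays, a log2 fold change of 1.27 (SE 0.22, limma adjusted p = 0.041). Ctsz, the carboxypeptidase cathepsin Z, rose by 1.63 on its brightest probe set (limma adjusted p = 0.0207) and by 1.86 on another, and had 1.41 on the third (limma adjusted p = 0.0879). Grn, which encodes progranulin, a lysosomal and secreted protein, rose by 1.44 on 1 probe set (limma adjusted p = 0.0281), whereas its brightest gave 1.14 (limma adjusted p = 0.145). Without the 2 arrays that stand apart no probe set of Ctsd, Hexa, Ctsz or Grn passed, and Cd68 did (limma adjusted p = 0.0406). Of the vacuolar proton pump, which acidifies lysosomes, none of 15 tested subunits passed limma's test, none had an unadjusted p under 0.05, none was called with array weights, and the median was -0.05 with a range of -0.37 to 0.22.

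Promoters were read around the annotated start of the genes that rose, since they moved together. The stretches cover 250 bases before to 50 after the start, were taken from RefSeq (GRCm38.p6), and were available for 23 of the 26 genes. Both strands were searched for GAGGAAGT, a site bound by the phagocyte factor PU.1, for CACGTG, the E-box bound by regulators of lysosomal genes, and for TGACGTCA, a site of ATF and CREB factors. GAGGAAGT was in 2 of the 23 (C1qc and Slamf9), or 8.7%, and in 3.69% of the 27025 genes with a promoter. CACGTG was in 2 of the 23 (Ctsd and Slamf9), or 8.7%, and in 8.09% of all genes. TGACGTCA was in none of the 23 and in 2.03% of all genes. Among 59 lysosomal genes of the array with a promoter, whether they rose or not, 18 held CACGTG, which is 30.5%. The promoters with a match are printed 5′ to 3′ along the gene, with the match in capitals, beside that of Cst7, the gene with the largest rise, which has none. CACGTG begins 245 and 98 bases before the start in Ctsd and 204 before it in Slamf9, and the PU.1 letters begin 195 before it in C1qc, on the opposite strand, and 8 before it in Slamf9.
Ctsd, chr7:142387778-142388077, minus strand: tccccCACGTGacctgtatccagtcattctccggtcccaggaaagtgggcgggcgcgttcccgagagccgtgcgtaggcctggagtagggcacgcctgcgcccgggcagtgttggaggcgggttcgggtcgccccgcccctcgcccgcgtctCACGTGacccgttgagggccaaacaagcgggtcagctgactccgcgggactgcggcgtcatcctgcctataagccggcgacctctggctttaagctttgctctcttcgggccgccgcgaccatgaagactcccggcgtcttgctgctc
C1qc, chr4:136892865-136893164, minus strand: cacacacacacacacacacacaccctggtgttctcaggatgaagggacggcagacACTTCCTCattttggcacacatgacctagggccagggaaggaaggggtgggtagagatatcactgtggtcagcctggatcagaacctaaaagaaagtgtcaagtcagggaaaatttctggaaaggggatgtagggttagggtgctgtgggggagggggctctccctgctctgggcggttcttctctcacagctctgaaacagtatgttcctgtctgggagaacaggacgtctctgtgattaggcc
Slamf9, chr1:172475110-172475409, plus strand: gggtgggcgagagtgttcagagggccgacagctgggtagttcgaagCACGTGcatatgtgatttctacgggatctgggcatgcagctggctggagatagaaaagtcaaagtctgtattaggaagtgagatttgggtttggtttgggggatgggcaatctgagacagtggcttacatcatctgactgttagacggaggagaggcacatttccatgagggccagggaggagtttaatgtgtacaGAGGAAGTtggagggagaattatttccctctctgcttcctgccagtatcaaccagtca
Cst7, chr2:150570165-150570464, plus strand: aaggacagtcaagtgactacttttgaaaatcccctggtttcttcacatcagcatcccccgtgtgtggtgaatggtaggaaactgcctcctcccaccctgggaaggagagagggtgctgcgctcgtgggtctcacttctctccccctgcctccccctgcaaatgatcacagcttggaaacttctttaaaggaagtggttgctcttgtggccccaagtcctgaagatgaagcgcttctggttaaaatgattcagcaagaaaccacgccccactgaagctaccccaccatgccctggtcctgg

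Transcription factors and signalling genes formed a small group among the rises. Irf8, a factor that sets the identity of microglia and macrophages, was at 38.2, 31.5 and 53.7 on the NTg arrays and at 226.7, 158.4 and 314.9 on the SOD1 G93A arrays, a log2 fold change of 2.23 (SE 0.30, limma adjusted p = 0.0101). Its other probe set had a log2 fold change of 1.29 (limma adjusted p = 0.213). Atf3, a factor induced by stress and injury, was at 24.3, 23.9 and 12.7 on the NTg arrays and at 106.7, 120.4 and 110.6 on the SOD1 G93A arrays, a log2 fold change of 2.14 (SE 0.28, limma adjusted p = 0.00582). Atf3 passed whichever array was left out and without the 2 arrays that stand apart. It was the 1 gene of 30 tested in the injury and stress response list that rose, where 0.185% of all genes rose. The median of that list was 0.44. Trib3, a pseudokinase induced by the unfolded protein response, had a log2 fold change of 1.56 (limma adjusted p = 0.0944), which did not pass. Socs3, an inhibitor of cytokine signalling through JAK and STAT, rose on its brightest probe set from 25.7, 22.1 and 53.6 to 253.4, 328.7 and 167.0, by 2.63 (SE 0.41, limma adjusted p = 0.0237). The other 2 tested probe sets of Socs3 had log2 fold changes of 1.52 and 0.76 and did not pass. Socs3 was the 1 gene of 21 tested in the list of cytokines and NF-kB that rose.

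Other immune groups lay above 0 without a gene that passed. All 5 tested genes of the phagocyte NADPH oxidase, which makes superoxide, had SOD1 G93A arrays wholly above NTg, as 6.98% of all genes had, with a median log2 fold change of 1.45. None had an adjusted p under 0.05 in limma, and all 5 had an unadjusted p under 0.05, as 6.22% of all genes had in either direction. With array weights 2 of them were called. Cyba, the small subunit of its membrane part, had signals of 84.1, 48.7 and 54.5 on the NTg arrays and of 178.4, 274.8 and 228.1 on the SOD1 G93A arrays and a log2 fold change of 1.73 (limma adjusted p = 0.151). Cybb, the catalytic subunit, had a log2 fold change of 1.45 (limma adjusted p = 0.202). Of 17 chemokines and receptors, none passed, 5 had an unadjusted p under 0.05, all of them higher, and 1 was called with array weights. The chemokine Ccl3 had the largest value, 2.51 (SE 0.52, limma adjusted p = 0.126), from signals of 2.0, 0.8 and 14.2 against 96.6, 42.3 and 44.7. All 26 interferon-stimulated genes tested had a log2 fold change above 0, where 52.8% of all genes did, with a range of 0.16 to 0.98. None of them passed, 4 had an unadjusted p under 0.05, and none was called with array weights. In 5 of the 26 the SOD1 G93A arrays lay wholly above NTg. The mean log2 level of the list was 5.92, 5.78 and 6.24 on the NTg arrays and 6.84, 6.58 and 6.1 on the SOD1 G93A arrays, so that the groups overlapped. Of 19 genes of antigen presentation, none passed, 5 had an unadjusted p under 0.05 and none was called with array weights, with a median of 0.43.

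Genes that mark astrocytes as such and genes that mark reactive astrocytes gave different counts. Of 24 astrocyte markers tested, none passed, 1 had an unadjusted p under 0.05 (Ntsr2, a neurotensin receptor, at 0.48) and none was called with array weights. Their median was 0.07, with a range of -0.71 to 0.75. The 3 brightest were Aldoc, a glycolytic aldolase, Gja1, a gap junction protein, and Slc1a2, the main glutamate transporter, with log2 fold changes of 0.15, 0.16 and 0.05. Slc1a2 had signals of 5415.6, 5096.4 and 7232.8 on the NTg arrays and of 7578.4, 5108.9 and 6039.0 on the SOD1 G93A arrays, and the groups overlapped. Aldh1l1, the protein named for the staining, was at 280.0, 298.5 and 228.9 on the NTg arrays and at 359.3, 428.6 and 338.5 on the SOD1 G93A arrays, a log2 fold change of 0.47 (limma adjusted p = 0.925). Bright astrocyte markers were thus present in both groups. Of 30 reactive astrocyte genes tested, 2 rose and none fell, where 0.185% of all genes rose and 0.0401% fell. The median of the list was 0.94.

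Timp1, an inhibitor of matrix metalloproteinases, was at 20.3, 4.1 and 0.5 on the NTg arrays and at 108.8, 129.9 and 135.2 on the SOD1 G93A arrays. It rose by 3.26 (SE 0.38, limma adjusted p = 0.00253), passed whichever array was left out, and passed without the 2 arrays that stand apart. NTg replicates 2 and 3 lay below the offset of 7, so the size of this rise depends on it. Cd109, a surface protein that binds transforming growth factor beta, was at 3.8, 2.4 and 2.6 in NTg, below the offset, and at 39.4, 57.2 and 47.3 in SOD1 G93A mice, and rose by 2.42 (SE 0.41, limma adjusted p = 0.041). Serpina3n, a secreted protease inhibitor, had a log2 fold change of 1.90 (limma adjusted p = 0.128) and did not pass. Gfap, the filament protein of reactive astrocytes, was chosen after its values were seen. Its signals were 2508.2, 784.6 and 3302.8 on the NTg arrays and 5747.3, 5716.8 and 5334.0 on the SOD1 G93A arrays, a log2 fold change of 1.66 (limma adjusted p = 0.365). The NTg arrays varied, and all 3 lay below the SOD1 G93A arrays.

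**Figure D3:**
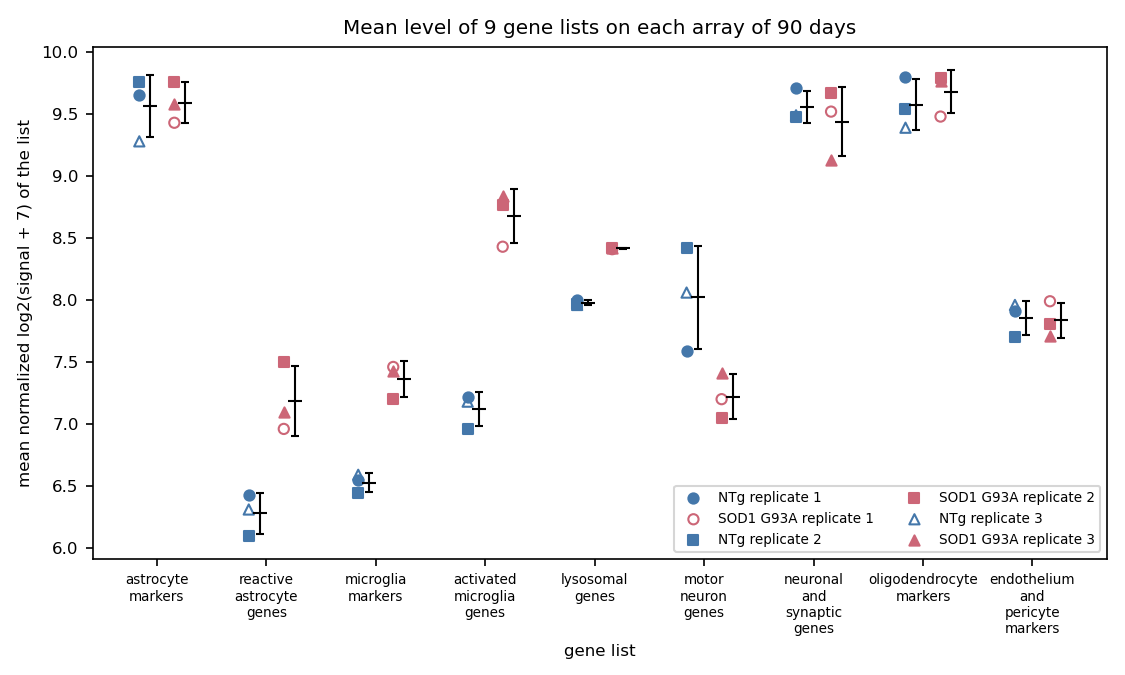
Points are the mean normalized log2(signal + 7) of a gene list on 1 array (y axis) for 9 lists (x axis), with NTg in blue, SOD1 G93A in red and open symbols for the 2 arrays that stand apart. Black bars are the group mean and SD of 3 arrays, and the activated microglia list lies at 6.96 to 7.22 in NTg and 8.43 to 8.84 in SOD1 G93A mice.

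Markers of other cell types were read beside these groups, because the captured material is bulk RNA in which fewer cells of a type and less RNA per cell cannot be told apart. Of 19 microglia markers tested, 2 rose (Irf8 and Fcrls) and none fell, the median was 0.81, and 17 were above 0. Over all genes 0.185% rose, 0.0401% fell and 52.8% were above 0. The mean level of the microglia list was 6.44 to 6.59 on the NTg arrays and 7.20 to 7.46 on the SOD1 G93A arrays. Fcrls, an Fc receptor-like protein typical of microglia, was at 75, 78.2 and 67.3 on the NTg arrays and at 343.0, 372.7 and 389.2 on the SOD1 G93A arrays, a log2 fold change of 2.20 (SE 0.24, limma adjusted p = 0.00208). Csf1r, the receptor for the growth factor of microglia, had signals of 2220.3, 1628.4 and 3185.3 on the NTg arrays and of 6123.4, 3821.5 and 4738.3 on the SOD1 G93A arrays (log2 fold change 1.13, limma adjusted p = 0.149). P2ry12, Tmem119 and Cx3cr1, further members of this list, were chosen after their values were seen. They had log2 fold changes of 0.39, 0.13 and 0.81, beside the list's median of 0.81, and did not pass. Gpr34 and Itgam were too dim to be tested. The mean level of the microglia markers was higher in SOD1 G93A by 0.84, beside differences of 1.56 for the activated microglia genes, 0.77 for complement, 0.77 for the Fc and phagocytic receptors, 1.33 for the NADPH oxidase, 0.44 for the lysosomal genes and 0.91 for the reactive astrocyte genes. The part of the microglia markers in those results was not tested.

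The remaining cell type lists, apart from that of motor neurons, gave no call in limma. On the 6 arrays the mean log2 level was 9.39 to 9.80 for the oligodendrocyte markers and 9.13 to 9.71 for the neuronal and synaptic genes, so that RNA of those cells was measured in both groups. The medians were 0.10 for 18 oligodendrocyte markers, -0.10 for 16 markers of endothelium and pericytes, -0.15 for 7 fibroblast markers (0.15 without the 2 arrays that stand apart) and -0.11 for 22 neuronal and synaptic genes. With an unadjusted p under 0.05 were 1 marker of vessels, which was higher (Acta2, smooth muscle actin, at 1.04 with SOD1 G93A replicate 1 at 1643.4 and the other 2 at 506.4 and 417.7), and 1 neuronal gene, which was lower (Sv2b, a synaptic vesicle protein, at -0.78). Over all genes 6.22% had such a p in either direction. None of these lists had a member called with array weights. Of 12 markers of lymphocytes and neutrophils on the array, 2 were bright enough to be tested (Cd8a and S100a8, which did not pass), and Cd3e, Cd4 and Ms4a1 were not among them. Sod1 itself gave a log2 fold change of -0.35 (limma adjusted p = 1.0) on its brightest probe set, which measures the mouse gene and not the human transgene, and therefore does not check the labels.

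The largest fall was in a gene of motor neurons. Chodl, a lectin-like membrane protein of fast motor neurons, was at 246.4, 1102.6 and 608.8 on the NTg arrays and at 43.0, 90.3 and 22.1 on the SOD1 G93A arrays. It fell by 3.40 on the log2 scale (SE 0.60, limma adjusted p = 0.0486). NTg varied widely, and Chodl passed in 1 of the 6 fits that left out an array. Its limma adjusted p was 0.0763 with a term for the 2 arrays that stand apart and 0.415 without them, so that no gene of the motor neuron list was called in either fit. Mmp9, a metalloproteinase of the same fast motor neurons, was at 138.4, 320.3 and 154.4 on the NTg arrays and at 56.4, 26.0 and 33.1 on the SOD1 G93A arrays, a log2 fold change of -2.18 (SE 0.40, limma adjusted p = 0.0642), which did not pass. Of 17 motor neuron genes tested, 1 fell and none rose, where 0.0401% of all genes fell and 0.185% rose. In 5 of them the SOD1 G93A arrays lay wholly below NTg, against 5.42% of all genes, and the list's median was -0.59. The mean level of the list was 7.59, 8.42 and 8.06 on the NTg arrays and 7.20, 7.05 and 7.41 on the SOD1 G93A arrays. The neurofilaments Nefl, Nefm and Nefh, its brightest members, had log2 fold changes of -0.47, -1.02 and -0.64 and did not pass. Chat, the enzyme that makes acetylcholine, was chosen after its values were seen and had a log2 fold change of -0.07, at signals of 27.3 to 48.0 on the 6 arrays. Those signals were dim, near the arrays' median signals of 24.9 to 30.4, so this value says little about Chat.

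The other genes that fell have no single role. Mctp1, a calcium-binding membrane protein, was at 83.6, 126.2 and 71.8 on the NTg arrays and at 13.8, 13 and 11.7 on the SOD1 G93A arrays, and fell by 2.33 on the log2 scale (SE 0.25, limma adjusted p = 0.00208). It is the 1 gene among the falls that passed whichever array was left out and without the 2 arrays that stand apart. Rspo2, a secreted protein that strengthens Wnt signals, was at 188.3, 506.2 and 382.0 on the NTg arrays and at 65.0, 23.6 and 39.8 on the SOD1 G93A arrays, and fell by 2.86 (SE 0.41, limma adjusted p = 0.0136). It was the 1 gene of 27 tested in the Wnt pathway that fell, where 0.0401% of all genes fell. None of that list rose, and the median was -0.29. Dkk3, a relative of the Wnt inhibitors of the Dickkopf family, had a log2 fold change of -1.80 (limma adjusted p = 0.0879).

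Syndig1l, a membrane protein related to a regulator of synapse formation, was at 91.8, 254.4 and 346.4 on the NTg arrays and at 41.0, 25.9 and 24.8 on the SOD1 G93A arrays, and fell by 2.52 (SE 0.41, limma adjusted p = 0.0281). Its second probe set had a log2 fold change of -1.82 (limma adjusted p = 0.0926). Pde6b, a phosphodiesterase subunit of rod photoreceptors, was at 67.6, 72.2 and 80.2 on the NTg arrays and at 17.8, 21.0 and 19.2 on the SOD1 G93A arrays, and fell by 1.66 (SE 0.27, limma adjusted p = 0.0297). Both of its groups were narrow. Dcbld1, a membrane protein of the discoidin family, fell by 1.79 (limma adjusted p = 0.0458) on 1 probe set, and its brighter probe set had a log2 fold change of -0.75 (limma adjusted p = 0.547). Among the 10 largest falls at the 2-fold threshold that did not pass the adjusted p were also Trhr, the receptor for thyrotropin-releasing hormone, at -2.13 (limma adjusted p = 0.132), and Pdgfd, a platelet-derived growth factor, at -1.80 (limma adjusted p = 0.204). Kcnj14, an inward rectifier potassium channel, at -2.00 (limma adjusted p = 0.35), and Cd24a, a surface glycoprotein of young neurons, at -2.05 (limma adjusted p = 0.465), complete them.

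**Figure D4:**
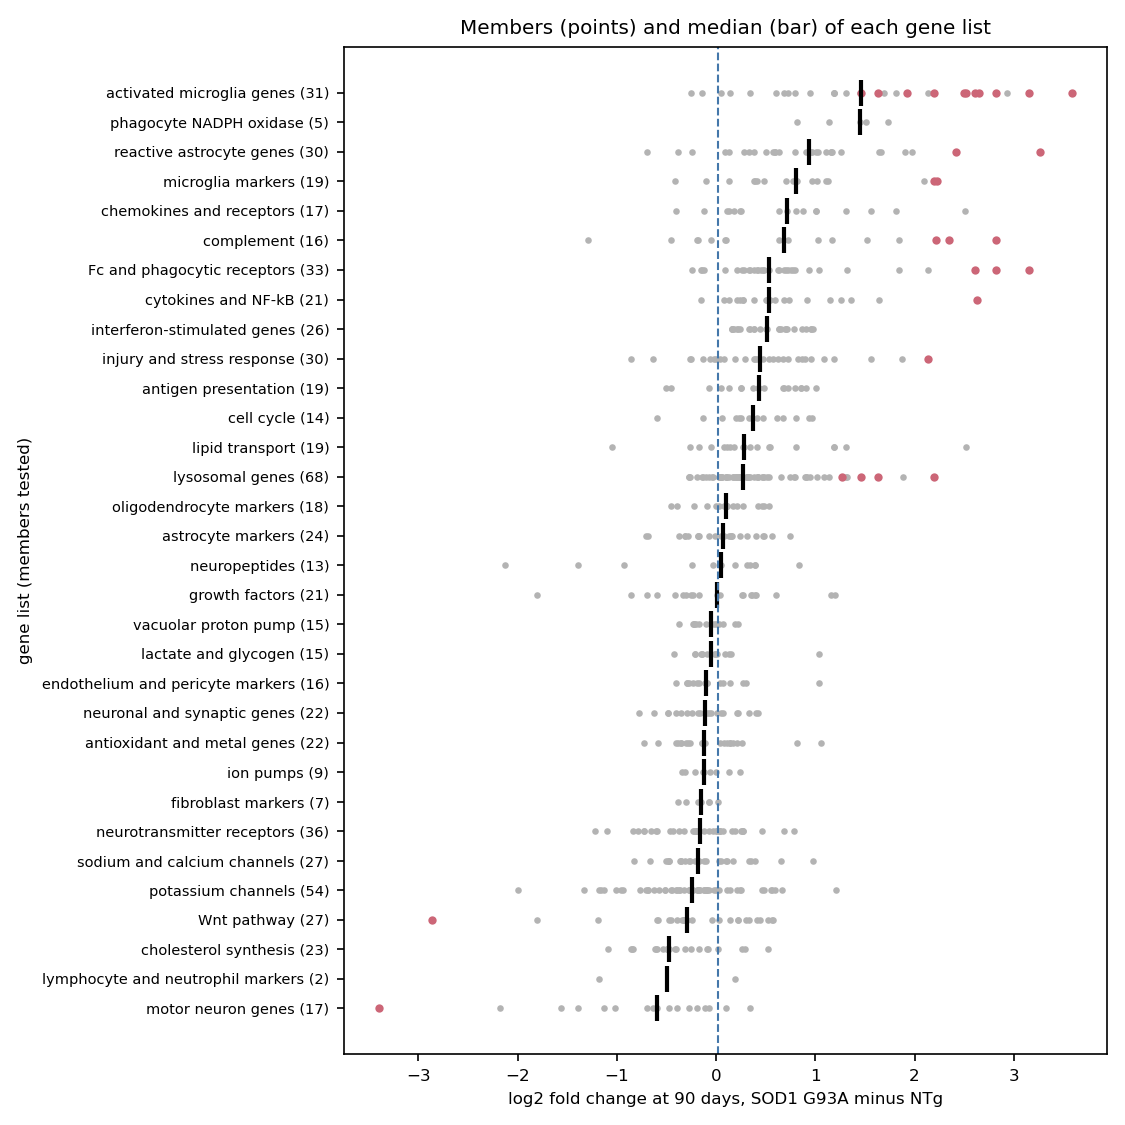
Each row is a gene list with the number of members tested, each point a member by its log2 fold change at 90 days (x axis), red where the adjusted p was under 0.05, and each black bar the list's median. The dashed line is the median of all genes, 0.02, and the medians run from -0.59 for motor neuron genes to 1.46 for activated microglia genes.

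The lists of potassium channels and of cholesterol synthesis held no call in limma. The former holds the genes of the array with a Kcn symbol, many of them known from neurons. Of its 54 genes tested, none passed in limma, with a median of -0.24, and 11 had an unadjusted p under 0.05, of which 1 was higher. Over all genes 6.22% had such a p in either direction. With array weights 1 was called higher and 1 lower. Kcnj3, a channel gated by G proteins, had a log2 fold change of -1.13 (limma adjusted p = 0.32), and Kcnk6, a pore-forming leak channel, one of 1.21 (limma adjusted p = 0.128). Of 23 genes of cholesterol synthesis, none passed, and the median was -0.47. An unadjusted p under 0.05 was found for 5 of the 23, all lower, beside the same 6.22% of all genes. None was called with array weights. Insig1, which holds the sterol sensor in the endoplasmic reticulum, was at 503.8, 616.3 and 735.8 on the NTg arrays and at 295.6, 262.9 and 282.9 on the SOD1 G93A arrays, a log2 fold change of -1.09 (limma adjusted p = 0.144). The groups did not overlap. Idi1, an isomerase of the isoprenoid pathway, had a log2 fold change of -0.84 (limma adjusted p = 0.496).

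Lipid transport genes had a median of 0.28 over 19 tested, with none that passed in limma. Of them, 5 were higher and 1 lower at an unadjusted p under 0.05, which 6.22% of all genes had in either direction. With array weights 2 were called higher. Apoe, the main lipid carrier made by astrocytes and by activated microglia, was at 2393.6, 2107.9 and 2396.9 on the NTg arrays and at 5054.6, 4948.0 and 5295.5 on the SOD1 G93A arrays, a log2 fold change of 1.19 (SE 0.23, limma adjusted p = 0.0927). The 2 groups were narrow and far apart, and the gene still missed the threshold. Lpl, which frees fatty acids from lipoproteins, had a log2 fold change of 2.52 (SE 0.53, limma adjusted p = 0.128), and Plin2, a coat protein of lipid droplets, one of 1.31 (limma adjusted p = 0.14).

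The lists of lactate and glycogen, antioxidant and metal genes, ion pumps, growth factors, neurotransmitter receptors, sodium and calcium channels, neuropeptides and the cell cycle also held no call in limma. Their medians lay between -0.18 for 27 sodium and calcium channel genes and 0.37 for 14 cell cycle genes. Of 15 genes of lactate and glycogen metabolism, 1 had an unadjusted p under 0.05, Hk2, a hexokinase, at 1.04. The metallothioneins Mt1 and Mt2, which bind zinc and copper, had log2 fold changes of 1.06 and 0.82 (limma adjusted p = 0.271 and 0.465). Of 36 neurotransmitter receptor genes 7 were lower and 1 was higher at an unadjusted p under 0.05, which 6.22% of all genes had in either direction.

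The same probe sets were read in the other 6 mice, at 120 days, the late stage. Median signals at that age were 38.8, 43.1 and 55.2 on the SOD1 G93A arrays and 37.1, 27.9 and 34.1 on the NTg arrays. The Gapdh ratio was between 4.45 and 5.16, against 3.51 to 4.64 at 90 days. The part of array quality in the differences between the ages was not tested. All 30 that rose at 90 days had a log2 fold change above 0 at 120 days and 29 of them passed there, where 3.6% of all probe sets rose. Cd109 did not pass (1.35, limma adjusted p = 0.0619). The median of the 30 was 2.29 at 90 days and 2.86 at 120 days, and 25 of them had the larger value at 120 days. Mpeg1 went from 1.92 to 4.09, the lysozyme probe set with the largest value from 3.14 to 5.45, and Trem2 from 2.61 to 1.39. All 6 that fell were below 0 at 120 days and 4 of them passed there, where 3.82% of all probe sets fell. Their median was -2.43 at 90 days and -1.66 at 120 days, with Chodl at -2.56, Rspo2 at -2.70, Pde6b at -2.41 and Mctp1 at -0.91 among those that passed at 120 days, and Syndig1l at -0.89 and Dcbld1 at -0.75. These probe sets were chosen for their value at 90 days, so the comparison of their sizes at the 2 ages is a description. Both ages also share 1 estimate of the spread per probe set in the fit. The numbers that passed at 120 days are therefore no independent test, and the shares of all probe sets are not a like background.

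The difference between the stages was tested directly in limma as the 120-day minus the 90-day log2 fold change. No probe set of 26132 passed, with a smallest adjusted p of 0.192, and 2412 (9.23%) had an unadjusted p under 0.05. With a trended and robust prior 20 passed, with the higher offset 3, and without NTg replicate 2 of 90 days 11. The list of activated microglia genes went from a median of 1.46 to one of 2.13, that of reactive astrocyte genes from 0.94 to 1.66, that of motor neuron genes from -0.59 to -1.18 and that of neuronal and synaptic genes from -0.11 to -0.71. The median of the astrocyte markers was 0.07 at 90 days and 0.02 at 120 days. The median of the lysosomal genes was 0.27 at 90 days and 0.16 at 120 days, with 4 higher and none lower called at 90 days and 17 higher and 2 lower called at 120 days.

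**Figure D5:**
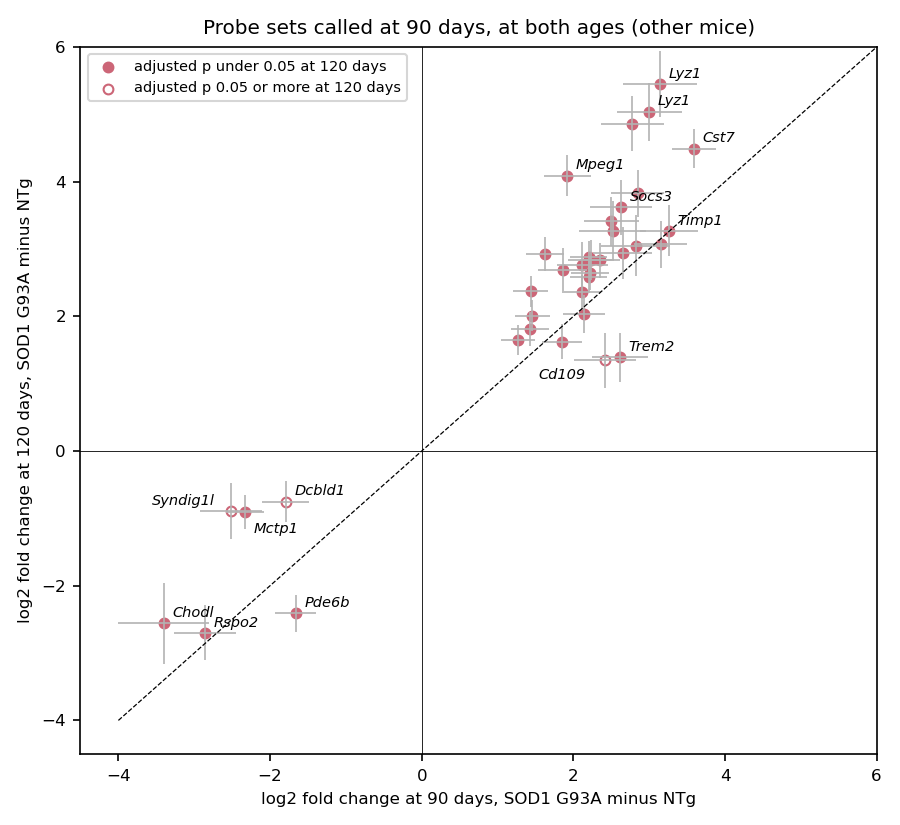
Each point is a probe set called at 90 days, by its log2 fold change at 90 days (x axis) and at 120 days in other mice (y axis), with standard errors as grey bars and filled points where the adjusted p at 120 days was under 0.05. All 36 lie on the same side of 0 at both ages, and 25 of the 30 that rose lie above the dashed line of equal values.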

How the data were processed

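Deposited values were linear signal intensity per probe set of Affymetrix Mouse Genome 430 2.0 arrays, made by the authors with MAS5, per the labels, after 2 rounds of amplification and scaled to a trimmed mean of 100. The MAS5 version and the present calls were not used here. The methods describe PLIER values for the differential expression, which these are not. Of 45101 probe sets, 34958 had 1 gene symbol, 932 several and 9211 none, and 64 controls were left out. Signals were taken as log2(signal + 7), the offset being the 20th percentile, and quantile-normalized within each age. Probe sets above their own array's median on at least 3 arrays were tested (26132). The 4 groups entered 1 linear model (limma 3.58.1, R 4.3.3), with p-values adjusted after Benjamini-Hochberg and the steps tested on simulated data. That the 3 samples of a group are separate mice is taken from the methods, since the sample titles only number them. Having 3 mice per group limits the precision. A gene is given by its brightest tested probe set unless another is named, and an SE is that of the log2 fold change. Genes named are those called, at most 3 members per list, those of smallest p, the 3 brightest markers of each cell type, the 10 largest falls at the 2-fold threshold and up to 3 genes each way for the difference between the stages, of which none passed and none is named. Others are said to be chosen after their values were seen. The comparison, the gene lists, the motifs and the rule were chosen with earlier results of these data known, so a pattern already seen is no independent support. Lists share members and some list genes were not analysed here. Alternatives were other scalings (as deposited, median centring, quantile normalization of the 12 arrays together), other offsets (1 and 34), other filters (none, or at the 75th percentile) and other fits (90-day arrays alone, a block for the replicate number, array weights, a prior with trend and robustness, no moderation, a gene's mean over its probe sets, each array left out). A term for the 2 arrays that stand apart, and the fit without them, were added after seeing the data. Plots were made in python 3.11.15 with matplotlib 3.10.9.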

Additional observations from a re-analysis of the deposited data

How the results depend on the processing

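With 3 arrays per group, the number of calls moved with the setting more than the direction of any call did. The 30 higher and 6 lower probe sets became 52 and 15 with the offset of 34, 101 and 30 with array weights, and 12 and 1 with the 90-day arrays fitted alone. With the unmoderated test they became 0 and 0, with 1628 probe sets at an unadjusted p under 0.05. With a trended and robust prior 46 were higher, and the lower ones were 3 with quantile normalization over all 12 arrays, 2 with the offset of 1 and 2 without a filter. Without the 2 arrays that stand apart 10 were higher and 1 lower, and with a term for them 30 and 6. Leaving out 1 array gave between 10 (without SOD1 G93A replicate 3) and 21 higher (without NTg replicate 3) and between 1 (without NTg replicate 2 or NTg replicate 3) and 5 lower. It gave between 297 and 371 higher and between 191 and 365 lower at the 2-fold threshold. These fits have fewer arrays, and the 261 higher and 201 lower at the 2-fold threshold became 109 and 69 with the offset of 34 and 134 and 102 with the filter at the 75th percentile, which tests fewer probe sets. The lower ones became 122 with the unmoderated test. The difference between the stages passed for no probe set, for 3 with the offset of 34, for 20 with the trended and robust prior, and for 11 without NTg replicate 2, with counts from 0 to 11 when 1 array was left out. The cause of these shifts was not tested where not named.

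For arrays of SOD1 G93A and NTg mice with the same replicate number, deviations from the group means had correlations of -0.267, 0.276 and -0.28 over the tested probe sets. The 2 arrays that stand apart, which differ in number, had 0.455. With 3 arrays per group and that pair among them, these values cannot decide whether the numbers pair the mice. With the replicate number as a block 14 probe sets were higher and 3 lower.

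Of the genes named in the text, each with every alternative that tested it, 1021 values kept direction and side of the threshold, 252 kept the direction and lost the call, and 33 gained it. The direction turned for 1 gene, Cd8a, in 2 fits that left out 1 array, with values between -0.29 and 0.75, none of them called. Of the list medians, 596 moved by less than the spread of the list's mean level between arrays and 75 by more. Signals near the offset of 7 carry little precision, and the arrays' own background was not used here.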
